A study of Mus musculus with 2 samples.

Results

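Blood endothelial cells of the mouse esophagus were described here as the 256 cells that the authors placed in cluster 8 of their annotation, out of 4853 cells in the series. Of these, 203 came from the Keap1 cKO library of 2381 cells and 53 from the control library of 2472 cells. In the Keap1 cKO library (K5CreERT2::Keap1 floxB/floxB) both Keap1 alleles were floxB and the animals also carried K5CreERT2, a Cre recombinase that tamoxifen switches on and that the keratin 5 promoter drives, so that deletion is directed at keratin 5 cells of the epithelium and not at the endothelium. The control library (Keap1 floxB/floxB) had the same floxed alleles without the Cre. Both groups were hybrids of C57BL/6J and BALB/c, and the esophagus was profiled by droplet 3′ RNA sequencing after its muscle had been taken off. The labels used here state neither the animals' age or number nor the time after induction, nor whether the controls received tamoxifen. Each genotype had 1 library, so no test was possible, and every interval below is a 95% interval that covers counting error only. Where a count was 0, the limit given is a floor of 3 counts or cells, which is not such an interval. A difference between the libraries cannot be told apart from a difference between animals, dissociations or library preparations.

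Endothelial cells line every vessel, and their gene use follows the vessel's calibre. Venules carry the selectins and the chemokine receptor Ackr1 and are the main site where leukocytes leave the blood. Capillaries carry fatty acid handling genes such as Fabp4 and Cd36, and arteries carry Notch ligands, gap junction connexins and elastic fibre genes. P-selectin (Selp) and E-selectin (Sele) hold rolling leukocytes, and Icam1 and Vcam1 bind their integrins so that they stop.

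The label held against its markers. Over both libraries the given markers reached 1490 UMIs per 1000000 UMIs (CPM) for Vwf, the clotting factor carrier, 1324 for Plvap, the diaphragm protein of fenestrae and caveolae, 933 for Selp, 615 for the VEGF receptor Flt1, 1519 for the junction molecule Pecam1 and 2884 for the water channel Aqp1. Outside the annotated endothelial clusters the same 6 genes lay between 2.21 and 15.3 CPM. The lymphatic genes Prox1 and Ccl21a had 8.94 and 2.09 CPM in cluster 8 over both libraries, but 672 and 16970 CPM in cluster 18, the other cluster that the authors named endothelial. These are the genes the cells were clustered on, so they describe the cluster and test nothing.

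Cluster 8 cells were deeper in the Keap1 cKO library, with a median of 13573 UMIs and 4145 genes, than in the control library, with 9829 UMIs and 3278 genes. Their summed UMIs came to 2821476 in the Keap1 cKO library and 532550 in the control library, so the control library sets the precision of every ratio, and UMIs given without a ratio are not scaled for this difference. Some cells carried transcripts of other cell types. A marker list of another type had at least 5 UMIs and at least 20% of the cell's pan-endothelial UMIs in 42 of 203 Keap1 cKO cells and 4 of 53 control cells, among them 25 Keap1 cKO and 1 control cells for T cell genes and 13 Keap1 cKO and 0 control cells for fibroblast genes. The summed T cell list stood at 996 CPM in Keap1 cKO cells and 122 CPM in control cells, and the fibroblast list at 1219 CPM in Keap1 cKO cells and 484 CPM in control cells. The neutrophil list stood at 273 CPM in Keap1 cKO cells and 3.76 CPM in control cells, but only 2 of its 8 members, S100a8 and S100a9, had 20 or more UMIs. Its Keap1 cKO UMIs were spread, with 19.3% in 5 cells, and 1 Keap1 cKO cell passed the cut for it. Red blood cells held 2.04 UMIs of this list per cell in the Keap1 cKO library and 0.0955 in the control library. The pericyte and smooth muscle list stood at 40.8 CPM in Keap1 cKO cells and 11.3 CPM in control cells, and 5 of its 8 members in the table were at 0 in control cells. The summed macrophage list ran the other way, at 237 CPM in Keap1 cKO cells and 531 CPM in control cells. That sum rests on few cells, since 5 cells held 88.7% of its control UMIs and 55.6% of its Keap1 cKO UMIs. By member the list was not lower: its 6 measured members had a median log2 ratio, Keap1 cKO over control, of 0.38. The part of these transcripts in the differences below was not tested. Values without those 46 cells are called values without mixed cells.

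The sequences around the starts of the genes that carry the main differences are given first. They are RefSeq windows on GRCm38.p6, which is mm10. Shown for the selectins are the 250 bases before the start, at chr1:164047984-164048233 for Sele and chr1:164115014-164115263 for Selp, both on the plus strand, with motif matches in capitals.
Sele: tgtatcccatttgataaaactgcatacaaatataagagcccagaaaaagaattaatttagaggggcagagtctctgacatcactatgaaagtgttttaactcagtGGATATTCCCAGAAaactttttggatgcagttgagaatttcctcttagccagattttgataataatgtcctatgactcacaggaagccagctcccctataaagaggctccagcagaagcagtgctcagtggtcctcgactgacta
Selp: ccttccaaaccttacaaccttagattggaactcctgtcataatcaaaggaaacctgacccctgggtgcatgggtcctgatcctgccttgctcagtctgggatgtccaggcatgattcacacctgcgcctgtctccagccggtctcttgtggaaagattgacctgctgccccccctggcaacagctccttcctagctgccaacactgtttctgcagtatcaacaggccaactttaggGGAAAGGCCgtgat
The 5 motifs, chosen after the data had been seen, were searched on both strands. The capitals in Sele join a relaxed NF-kappaB match (GGNNNTTCC), which begins 145 bases before the start, with an overlapping GAS match (TTCNNNGAA), and those in Selp are a relaxed NF-kappaB match 14 bases before the start. A relaxed NF-kappaB match was present in 15.66% and a GAS match in 7.02% of the 32851 RefSeq windows of that length. The full NF-kappaB consensus, the ISRE and the GC box (GGGCGG) had no match in either window, against 3.9%, 2.98% and 32.74% of all windows. A match is a description of letters only.

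The first comparison concerns how many of these cells each library held. Cluster 8 made up 8.53% (7.43 to 9.72) of Keap1 cKO cells and 2.14% (1.61 to 2.80) of control cells, a 3.98-fold larger share (2.93 to 5.49). Cluster 18 went the other way, with 0.630% (0.353 to 1.04) of Keap1 cKO cells and 1.09% (0.721 to 1.59) of control cells, and the interval of its ratio, 0.285 to 1.12, included 1. Blood endothelial cells were therefore 93.1% of the annotated endothelial cells in the Keap1 cKO library and 66.3% in the control library. Shares within a library depend on every other class, and the cluster 8 share without red blood and epithelial cells was 11.04% in the Keap1 cKO library against 3.67% in the control library. For cluster 18 that share was 0.816% in the Keap1 cKO library and 1.87% in the control library. The interval of this ratio, 0.216 to 0.851, did not include 1. Fewer or more cells of a class in a library and a different yield from dissociation cannot be told apart.

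Among venous genes both selectins were higher in Keap1 cKO cells and the abundant gene Lrg1 was lower. Over the 10055 genes that had 20 or more UMIs when the libraries were added, 26.1% were at least 1.5-fold higher and 9.84% at least 1.5-fold lower in Keap1 cKO cells, and the median log2 ratio was 0.17. Scaling by the median of ratios made this 20.2% higher and 14.9% lower, so that calls in the higher direction were 57.5% of all calls against 72.7% by library totals. Without mixed cells 25.7% were higher and 10.6% lower, and at 2-fold 13.4% were higher and 3.54% lower. All 10 venous genes were measured, 4 were at least 1.5-fold higher and 1 lower, and their median was 0.30 (0.46 without mixed cells). Selp, at chr1:164115264-164150026 in GENCODE on mm10, had 1034 CPM (996 to 1072) in Keap1 cKO cells and 402 CPM (350 to 459) in control cells, a log2 ratio of 1.36 (1.16 to 1.57). Sele, which lies next to it at chr1:164048234-164057677, had 197 CPM (181 to 214) in Keap1 cKO cells and 56.3 CPM (38.0 to 80.4) in control cells, a log2 ratio of 1.80 (1.27 to 2.39). Ephb4, the venous ephrin receptor, was 1.01 (0.54 to 1.51) higher and the prostaglandin transporter Slco2a1 0.94 (0.76 to 1.13) higher on the log2 scale. Lrg1, a secreted glycoprotein of venous endothelium, ran the other way: it had 819 CPM in Keap1 cKO cells, 1681 CPM in control cells and therefore a log2 ratio of -1.04 (-1.15 to -0.92). Nr2f2, the venous identity factor, and Ackr1 and Vwf had log2 ratios of 0.34, 0.26 and 0.26. Vcam1 had -0.31 and Tmem252 -0.17, each with an interval that included 0.

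The selectin difference was spread over cells. With each cell thinned to 5000 UMIs, which kept 165 Keap1 cKO and 49 control cells and left out 38 and 4 shallower ones, the median was 3 Selp UMIs per cell in the Keap1 cKO library and 1 in the control library. Sele was seen in 38.2% (30.7 to 46.1) of thinned Keap1 cKO cells and 12.2% (4.63 to 24.8) of control cells, and in none of the thinned red blood cells, which should lack it. At full depth, where the libraries differ, 99 of 203 Keap1 cKO cells and 10 of 53 control cells held a UMI of both selectins. Lrg1 had a median of 4 UMIs in Keap1 cKO cells and 7 in control cells.

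**Figure D1:**
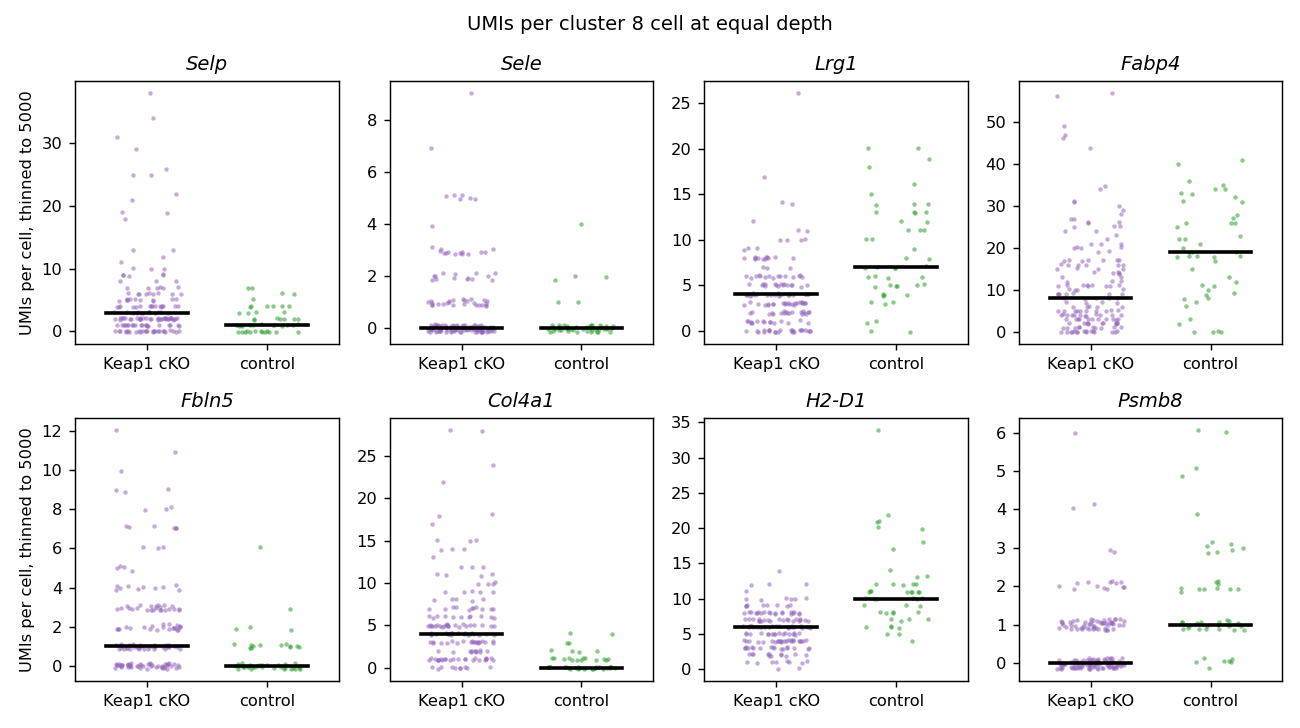
UMIs per cell for 8 genes after thinning each cluster 8 cell to 5000 UMIs; points are cells, jittered sideways and slightly up and down, and bars are medians. Median UMIs in Keap1 cKO cells against control cells were 3 against 1 for Selp, 4 against 7 for Lrg1, 8 against 19 for Fabp4, 4 against 0 for Col4a1 and 6 against 10 for H2-D1.

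Capillary genes had values on both sides of 0. Of 13 members 12 were in the table, 3 of them (Car4, Btnl9, Timp4) had 0 UMIs in both libraries, and 9 were measured. Of these 9 members 3 were at least 1.5-fold higher and 4 lower, beside 26.1% and 9.84% of all genes. The median was -0.37 (-0.21 without mixed cells). Fabp4, the fatty acid binding protein, was the most abundant, with 2189 CPM (2135 to 2245) in Keap1 cKO cells and 3818 CPM (3653 to 3987) in control cells, a log2 ratio of -0.80 (-0.87 to -0.73). Cd36, a fatty acid transporter, had 31.2 CPM in Keap1 cKO cells and 105 CPM in control cells, and Cd300lg, a lipid-binding receptor of capillaries, 22.3 CPM in Keap1 cKO cells and 152 CPM in control cells, log2 ratios of -1.75 and -2.77. Aplnr, the apelin receptor, was on the other side, with 221 CPM in Keap1 cKO cells and 82.6 CPM in control cells; its log2 ratio was 1.42 (0.98 to 1.89). Rgcc was 2.83-fold higher in CPM (log2 interval 0.07 to 3.42), on 60 UMIs in Keap1 cKO cells and 4 in control cells. Gpihbp1, which anchors lipoprotein lipase, had 38 UMIs in Keap1 cKO cells and 3 in control cells, a log2 ratio of 1.26 whose interval, -0.40 to 3.60, included 0. Meox2 and Tcf15, transcription factors of capillary endothelium, had -0.37 and -0.64, and Kdr, the main VEGF receptor, had 260 CPM in Keap1 cKO cells and 255 CPM in control cells.

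Of the 3 vessel lists the arterial one had the highest median, 1.59. Of its 11 measured members 7 were at least 1.5-fold higher and 1 lower, beside 26.1% and 9.84% of all genes. The middle member, which sets this median, was Stmn2. Fbln5 was seen in many cells, while 3 other members were concentrated in few. The elastic fibre gene Fbln5 had 373 CPM (351 to 396) in Keap1 cKO cells and 101 CPM (76.2 to 132) in control cells, a log2 ratio of 1.88, and was seen in 70.3% of thinned Keap1 cKO cells and 34.7% of thinned control cells. Stmn2 had 394 CPM in Keap1 cKO cells and 131 CPM in control cells, and the endothelial factor Sox17 had 91.8 CPM in Keap1 cKO cells and 43.2 CPM in control cells. The connexins and the semaphorin were concentrated in few cells. Gja5 had 92 UMIs in Keap1 cKO cells and 0 in control cells, at least 5.79-fold higher at a floor of 3 counts for the library, while Sema3g had 101 UMIs in Keap1 cKO cells and 0 UMIs in control cells and Gja4 had 100 UMIs in Keap1 cKO cells and 2 UMIs in control cells, a log2 ratio of 3.24 (1.35 to 6.30). In each of these 3 genes the 5 highest Keap1 cKO cells held at least 90% of the UMIs, and 6 Keap1 cKO cells held all 3 genes. Since Gja5 and Sema3g had 0 control UMIs, no control cell could hold more than 1 of the 3 genes. For 0 of 53 cells the limit of such a share is 5.66% at a floor of 3 cells and 6.72% by the exact interval. The Notch ligand Dll4 had 29 UMIs in Keap1 cKO cells and 11 UMIs in control cells, a log2 ratio of -1.01 with an interval from -2.05 to 0.14. Hey1, a Notch target, had a log2 ratio of 1.62 (-0.01 to 3.95) on 49 UMIs in Keap1 cKO cells and 3 UMIs in control cells, and Bmx, the ephrin ligand Efnb2 and the chemokine Cxcl12 had 0.38, 0.04 and -0.43. Alpl had 3 UMIs and Unc5b 5 UMIs in Keap1 cKO cells, and both had 0 in control cells, too few to be measured.

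**Figure D2:**
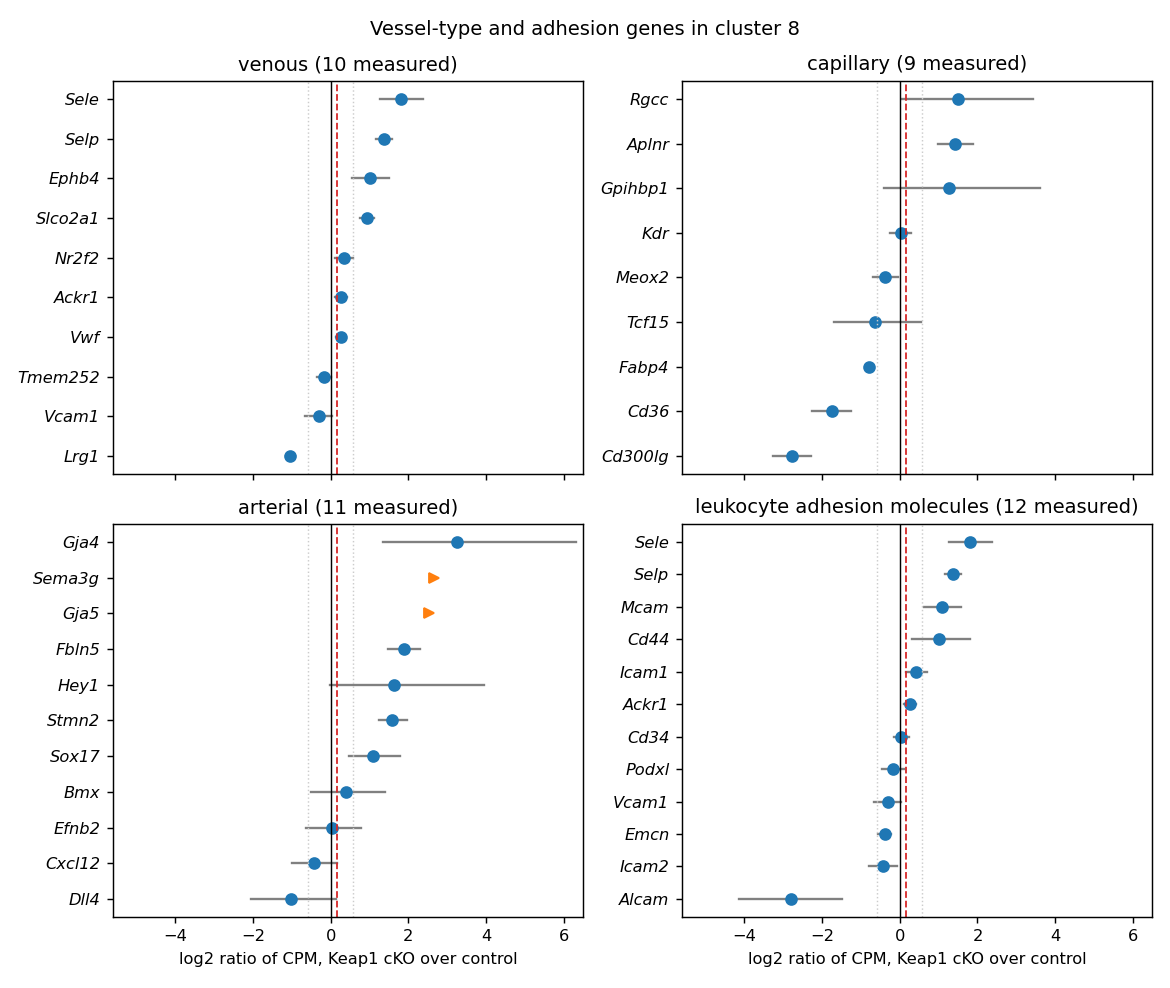
Log2 ratio of CPM, Keap1 cKO over control, for the measured members of 4 lists; circles carry exact 95% counting intervals and orange triangles are lower bounds from a floor of 3 counts for genes with 0 control UMIs. The red dashed line is the median over all genes, 0.17, dotted lines are 1.5-fold, and Sele (1.80) leads the venous list while Cd300lg (-2.77) is lowest among capillary genes.

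Single cells could be ordered by which list led at 5000 UMIs. The venous list led in 142 of 165 Keap1 cKO cells, 86.1% (79.8 to 91.0), and in 33 of 49 control cells, 67.3% (52.5 to 80.1). The capillary list led in 9.70% (5.64 to 15.3) of Keap1 cKO cells and 28.6% (16.6 to 43.3) of control cells. Arterial-led cells numbered 7, or 4.24% (1.72 to 8.55), in the Keap1 cKO library and 0 in the control library, where 0 of 49 allows up to 6.12% at a floor of 3 cells and up to 7.25% by the exact interval. The cut is a ranking of summed counts, and 8 venous-led Keap1 cKO cells and 6 venous-led control cells lay within 3 UMIs of it. Selp and Fabp4 enter these lists, so the shares restate the gene differences at the level of cells.

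Adhesion molecules beyond the selectins had values on both sides of 0. The adhesion list also holds both selectins. Of its 14 members 12 were in the table and measured. At least 1.5-fold higher were 4, namely Selp, Sele, Mcam and Cd44, and 1 was lower, beside 26.1% and 9.84% of all genes. The median was 0.15, against 0.17 over all genes; it was -0.01 with libraries scaled by the median of ratios and 0.35 without mixed cells. Mcam (CD146), a junctional adhesion molecule, had 163 CPM in Keap1 cKO cells and 77.0 CPM in control cells, a log2 ratio of 1.08 (0.62 to 1.58). Icam1 had 346 CPM in Keap1 cKO cells and 257 CPM in control cells, a log2 ratio of 0.43 (0.17 to 0.70), which is under 1.5-fold. Cd44, the hyaluronan receptor, had 68.4 CPM in Keap1 cKO cells and 33.8 CPM in control cells, and its log2 ratio of 1.02 was 0.43 without mixed cells. Alcam, with 10 UMIs in Keap1 cKO cells and 13 UMIs in control cells, was the member at least 1.5-fold lower. Icam2, Emcn and Podxl had log2 ratios of -0.43, -0.39 and -0.18, and Cd34 had 0.03. Junction molecules had a median of 0.14 (0.29 without mixed cells) and 11 of 14 measured members within 1.5-fold. Cdh5, the cadherin of endothelial junctions, had 0.20 and Pecam1 0.12. Cldn5, a tight junction claudin, had 1.31, but 78.3% of its Keap1 cKO UMIs lay in 5 cells, and it had 0.38 among venous-led cells.

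Collagen IV and XVIII genes were several-fold higher in Keap1 cKO cells, while the laminins named below were not. Of 23 measured members 9 were at least 1.5-fold higher and 2 lower, beside 26.1% and 9.84% of all genes, and the median was 0.21, close to the 0.17 of all genes (0.38 without mixed cells). Col4a1, a collagen IV chain, had 1136 CPM (1097 to 1176) in Keap1 cKO cells and 156 CPM (124 to 193) in control cells, a log2 ratio of 2.87 (2.55 to 3.20). Its partner Col4a2, which is read the other way from the same start, had 691 CPM in Keap1 cKO cells and 192 CPM in control cells, a log2 ratio of 1.85 (1.56 to 2.15). Their 5′ ends overlap at chr8:11312805-11312826, and this shared stretch is shown because both genes were higher.
Col4a1-Col4a2: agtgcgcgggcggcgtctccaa
Col18a1, the collagen XVIII chain, had 430 CPM in Keap1 cKO cells and 78.9 CPM in control cells, a log2 ratio of 2.45, and the matricellular protein Sparc and the proteoglycan perlecan (Hspg2) had 1.12 and 1.08. Adamts1, a secreted protease, had 111 CPM in Keap1 cKO cells and 18.8 CPM in control cells. The laminin genes Lamb2, Lamc1 and Lama4 had -0.53, -0.42 and -0.37, while the laminin gene Lamb1, the middle member of the list, had 0.21 (-0.41 to 0.88). Sparcl1 had -1.36 (-1.51 to -1.20). Col4a1 was seen in 93.9% of thinned Keap1 cKO cells and 42.9% of control cells, and in 1.71% of Keap1 cKO and 1.69% of control red blood cells. Across thinned Keap1 cKO cells Col4a1 and Col4a2 UMIs had a Pearson correlation of 0.687 (165 cells that share a library), against 0.164 in 49 control cells. With Col4a1 seen in only 42.9% of thinned control cells, the control value rests on few counts. The correlations therefore cannot be compared between the libraries.

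Fibroblasts make collagens too, and 13 Keap1 cKO cells passed the fibroblast mark. Without mixed cells Col4a1 had 3.02, Col18a1 2.54 and Sparc 1.14, while the fibroblast collagen Col1a1 had 0.88, against 2.03 in all cluster 8 cells. Elastin (Eln) and fibulin 2 (Fbln2), which were picked out after their values were seen, had 1936 CPM in Keap1 cKO cells against 284 CPM in control cells for Eln, and 1249 CPM in Keap1 cKO cells and 250 CPM in control cells for Fbln2. Eln was higher in the Keap1 cKO library in each of the 8 clusters compared, fibroblast and epithelial clusters included.

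Antigen presentation genes were lower in Keap1 cKO cells. For comparison with the counts below, 26.1% of all genes were at least 1.5-fold higher and 9.84% lower. Of 14 MHC class I genes, all measured, 11 were at least 1.5-fold lower and 0 higher, with a median of -0.98. H2-D1 and H2-K1, the classical heavy chains, had 1118 CPM in Keap1 cKO cells against 2182 CPM in control cells for H2-D1, and 1231 CPM in Keap1 cKO cells and 1964 CPM in control cells for H2-K1, log2 ratios of -0.96 (-1.06 to -0.87) and -0.67 (-0.77 to -0.57). These genes resemble each other, so reads may be shared between them. The immunoproteasome subunits Psmb8 and Psmb9 had -1.41 (-1.68 to -1.14) and -1.59 (-1.98 to -1.19), and the peptide transporter Tap1, next to Psmb9, had -0.34 (-0.89 to 0.24). B2m, the shared light chain, had -0.16. The stretch between the starts of Psmb9 and Tap1, chr17:34187331-34187555 on the plus strand, is shown because its neighbours differed; the GC box match is in capitals.
Psmb9-Tap1: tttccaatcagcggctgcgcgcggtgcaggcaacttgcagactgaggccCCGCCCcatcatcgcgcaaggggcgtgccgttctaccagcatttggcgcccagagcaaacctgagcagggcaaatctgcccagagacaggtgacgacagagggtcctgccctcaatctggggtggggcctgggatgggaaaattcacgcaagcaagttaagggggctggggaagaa
A GC box was present in 31.91% of windows of 225 bases, and the other 4 motifs had no match there. Of 7 MHC class II genes 5 were lower and 0 higher, with a median of -0.88, which was -1.91 without mixed cells and -1.32 over genes with at least 50 UMIs. The Langerhans cell list, which shares Cd74 and H2-Eb1 with it, stood at 507 CPM in Keap1 cKO cells and 1412 CPM in control cells, and its part in the result was not tested. Cd74, the invariant chain, had 349 CPM in Keap1 cKO cells and 1177 CPM in control cells, but its 5 highest cells held 76.3% of its UMIs in Keap1 cKO cells and 68.1% in control cells, and its log2 ratio was -1.76 in all cells and -3.19 without mixed cells. Interferon response genes had a median of -0.45 with 1 of 23 higher and 10 lower, among them the transcription factor Irf1 at -1.16 (-1.62 to -0.69).

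Several genes of lipid handling, caveolae and the immediate early response had lower values in Keap1 cKO cells. The counts for each list below stand beside 26.1% of all genes at least 1.5-fold higher and 9.84% lower. Apoe, the lipid carrier, had 293 CPM in Keap1 cKO cells and 2582 CPM in control cells, a log2 ratio of -3.14 (-3.27 to -3.02). Lipid handling genes had a median of -0.80, with 2 of 9 higher (Gpihbp1 and Fabp5, a gene also seen in most thinned red blood cells of the Keap1 cKO library) and 6 lower, among them the HDL receptor Scarb1 at -0.75; without mixed cells the median was -0.32, with 4 of 8 lower. Caveolae and transport genes had a median of -0.32, with 0 of 11 higher and 4 lower: Cav1 at -0.93 and Cav2 at -1.09, both caveolins, Cavin3 and the IgG receptor Fcgrt at -0.94. Without mixed cells their median was -0.37, with 3 of 10 lower. Without cells in which another list exceeded the pan-endothelial one it was -0.51, with 5 of 11 lower. Immediate early genes had a median of -0.45, with 7 of 15 lower (-0.12 with 5 lower among venous-led cells), among them Egr1 at -1.08 and Ier3 at -1.35, and Nfkbia, the feedback inhibitor of NF-kappaB, had 538 CPM in Keap1 cKO cells and 1117 CPM in control cells, a log2 ratio of -1.05 (-1.19 to -0.92). Nfkbiz and Tnfaip3, other feedback genes, had 1.06 and 1.11. Haemostasis genes had a median of 0.41, with 4 of 14 higher, a share near the 26.1% of all genes, and 0 lower; among the higher ones was endothelin 1 (Edn1) at 1.11 (0.89 to 1.34). Notch and BMP genes had a median of 0.50 (0.78 without mixed cells), with 8 of 17 higher and 1 lower, among them the inhibitory Smads Smad6 and Smad7 at 2.16 and 1.19 and Id2 at 1.22. Of 19 endothelial transcription factors 5 were higher and 2 lower, shares near the 26.1% and 9.84% of all genes, with Ets1 at 1.40, Gata2 at 1.22 and Ets2 at -1.28. Chemokines and cytokines had a median of 0.34 with 6 of 13 higher and 0 lower, but Ccl5 had 186 UMIs in Keap1 cKO cells and 1 in control cells, and 94.1% of the Keap1 cKO UMIs lay in 5 cells.

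KEAP1 holds the transcription factor NRF2 (Nfe2l2) at low levels, and NRF2 drives antioxidant genes. Keap1 had 59.9 CPM (51.2 to 69.6) in Keap1 cKO cells and 62.0 CPM (42.7 to 87.0) in control cells, and the 3′ counts do not show whether the floxed exons were present. Nfe2l2 had 141 CPM in Keap1 cKO cells and 145 CPM in control cells. The 30 measured NRF2 target genes had a median of 0.13, with 8 at least 1.5-fold higher and 4 lower, against 26.1% and 9.84% over all genes. Their log2 ratios ranged from -0.93 to 1.84. Nqo1 and Txnrd1, classical targets, had 0.38 and 0.49, with intervals that included 0, and ferritin heavy chain Fth1 had -0.80.

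**Figure D3:**
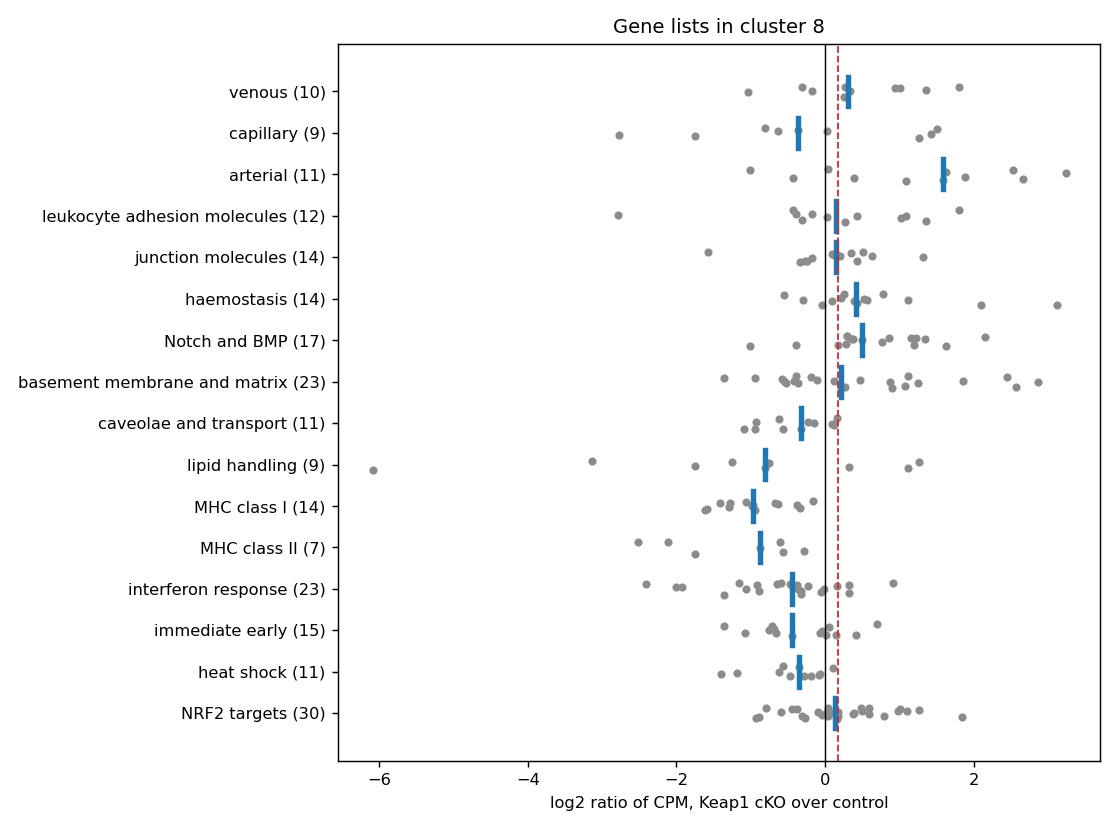
Log2 ratios of the measured members of 16 lists in cluster 8, 1 grey point per gene, with the list median as a blue bar; the red dashed line is the median of all genes, 0.17, and numbers in brackets count the members. The arterial median, 1.59, lies farthest to the right and the MHC class I median, -0.98, farthest to the left.

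A ranking of all genes, restricted to those with at least 100 UMIs, 50 CPM in either library and 5 times the UMIs of a red blood cell, gave genes of several cell types. T cell list members were 3 of the 12 highest: Il17a, with 409 UMIs in Keap1 cKO cells and 2 UMIs in control cells, Cd3g, with 526 UMIs in Keap1 cKO cells and 7 UMIs in control cells, and Thy1, with 254 UMIs in Keap1 cKO cells and 3 UMIs in control cells. The other high genes included the cytoskeletal adaptor Fblim1, 130 CPM in Keap1 cKO cells and 7.51 CPM in control cells, the protease inhibitor Serpine2 and the metalloprotease Mmp2, 236 CPM in Keap1 cKO cells and 20.7 CPM in control cells with a log2 ratio of 3.51 (2.67 to 4.52). Icos ranked highest of all, with 213 UMIs in Keap1 cKO cells and 1 UMI in control cells, and Ccl5, Samsn1 and Ptprcap were also among the 12. Without mixed cells 6 of the 12 highest and 9 of the 12 lowest genes were shared with that ranking. Icos, Samsn1, Ptprcap and the 3 T cell list members were those that left the highest genes, and Cald1, Cd14 and Htra1 were among those that entered. The lowest included Retnla (65 UMIs in Keap1 cKO cells and 265 UMIs in control cells, of which 5 control cells held 90.9%), Serpina3n, Depp1 (42.5 CPM in Keap1 cKO cells and 576 CPM in control cells, log2 ratio -3.76), Fmo2, Apoe and Tagln (-3.10).

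Set beside other clusters, some of these values were shared and some were not; differences between clusters were not tested. Col4a1 was higher in the Keap1 cKO library in fibroblast clusters 1 and 5, at 1.52 and 1.71. Col18a1 and Mmp2 were not, at -0.42 and -0.13 for Col18a1 and -0.63 and -0.90 for Mmp2. H2-D1 was lower in both, at -0.50 and -0.61, while H2-K1 was 0.42 and 0.29. Lower in both, too, were Egr1 at -1.24 and -1.32, Nfkbia at -0.83 and -1.22 and Fth1 at -0.87 and -1.11. Nfkbiz was higher in both, at 1.07 and 1.05. The immediate early median was -0.55 in cluster 1, -1.07 in cluster 5 and -0.64 in T cell cluster 3. It was -0.23, -0.15, 0.04 and 0.11 in clusters 11, 4, 2 and 13. In epithelial cluster 4 the MHC class I median was 1.05 and that of NRF2 targets 1.04, against -0.98 and 0.13 in cluster 8. The MHC class I median was also below 0 in T cell clusters 3 and 11, at -0.62 and -0.56. Fabp4 had 2.61 and 2.84 in those fibroblast clusters, on 76 UMIs in Keap1 cKO cells and 29 in control cells of cluster 1 and 30 UMIs in Keap1 cKO cells and 7 in control cells of cluster 5. The endothelial markers Aqp1, at 3.89 and 4.08, and Pecam1, at 3.65 and 2.82, were higher there too, and the part of endothelial RNA in those Fabp4 values was not tested. Txnip, picked out after its values were seen, was lower in each of the 8 clusters.

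**Figure D4:**
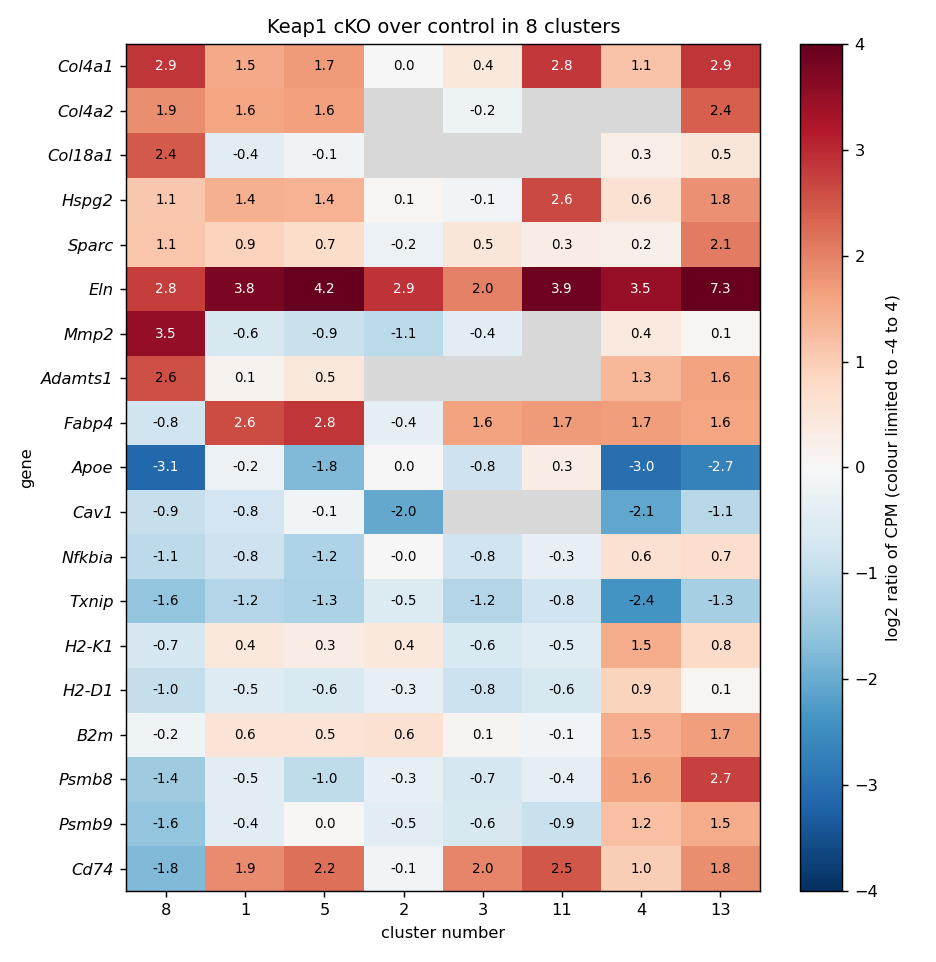
Log2 ratio of CPM, Keap1 cKO over control, for 19 genes in cluster 8 (endothelial), 1 and 5 (fibroblast), 2 (myeloid), 3 and 11 (T cell) and 4 and 13 (epithelial); grey marks fewer than 20 UMIs or too few for a ratio. Col18a1 is 2.45 in cluster 8 and -0.42 in cluster 1, and Txnip is below 0 throughout.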

How the data were processed

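The authors deposited a natural log of each gene's UMIs per 10000 UMIs of the cell, plus 1, which was read from the values. The submitters' processing notes name mm10, Seurat 4.0.2, R 4.1.1 and Cell Ranger 6.0.1, without parameters. Counts were recovered from each cell's smallest step, and 100% of positive values came out whole within 0.01 UMIs. Library, cluster and cell type come from the authors' deposited annotation. No cell was removed and no doublet caller was run, so doublets may remain; 5 barcodes occurred in both libraries, none with a cluster 8 cell. UMIs were summed over cluster 8 cells per library and given per 1000000 (CPM), with exact Poisson, conditional binomial and Clopper-Pearson intervals at 95%. A 0 was set to a floor of 3 counts. List members were measured where they had 20 or more UMIs in all. The gene lists, members and tests were chosen with earlier results of these data known. Named genes were the given markers, all members of the vessel type, lymphatic and adhesion lists, Keap1 and Nfe2l2, the 2 most abundant and 3 most different members of every other list, and the 12 highest and 12 lowest of the ranking; some are not described, and others named here were picked after their values were seen. The ranking leaves out mitochondrial, haemoglobin, receptor segment and sex-linked genes. Gene locations are from GENCODE M21. The interval method was tested on simulated counts. Python 3.11.15 with numpy 2.4.6, scipy 1.17.1, pandas 2.3.3 and matplotlib 3.10.9 was used.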

Additional observations from a re-analysis of the deposited data

How the results depend on the processing

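No paired analysis was possible because each genotype had 1 library. Of 83 values for the cell shares, vessel lists, vessel calls and counts of genes, 74 stayed within their interval or within 1.5 times the main count, and 9 moved. The number of genes at least 1.5-fold lower was 989, and became 1502 with libraries scaled by the median of ratios, 610 with at least 50 UMIs, 1500 with at least 1 UMI in each library and 356 at 2-fold; the number higher was 2628, and became 1344 at 2-fold. Calls higher in Keap1 cKO cells were 72.7% of all calls by library totals and 57.5% by the median of ratios, which moves log2 ratios by 0.16. The arterial median of 1.59 became 1.09 with at least 1 UMI in each library and 1.05 after free RNA was subtracted, since both leave out genes with 0 control UMIs. Leaving out red blood and epithelial cells gave cluster 8 shares of 11.04% in the Keap1 cKO library and 3.67% in the control library. The fibroblast marker median, 1.02 in all cells, was -0.28 without cells in which another list exceeded the pan-endothelial list and -0.36 without mixed cells, and Lyve1, -0.64 in all cells, was 0.27 without mixed cells. Of 1593 values for 183 named genes, 1477 stayed within their interval, 115 moved and 1 reversed. Leaving out mixed cells, cells under 10 pan-endothelial UMIs or all but venous-led cells was chosen after seeing the data; among venous-led cells Col4a1 had 2.89 and H2-D1 -1.03, Apoe moved to -2.95, and the immediate early median moved from -0.45 to -0.12. With 1 library per genotype no library could be left out. The 53 control cells limit every ratio.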

Other observations

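Among lists not described above, hypoxia genes had a median log2 ratio of -0.17. Of 13 measured members 1 was at least 1.5-fold higher and 4 lower, beside 26.1% and 9.84% of all genes. Ankrd37 and Egln3, both induced by low oxygen, had 27 UMIs in Keap1 cKO cells against 27 in control cells for the first and 22 in Keap1 cKO cells against 21 in control cells for the second, which are log2 ratios of -2.41 and -2.34 at these depths. Heat shock genes had a median of -0.35 (-0.21 without mixed cells), with 0 of 11 higher and 3 lower, among them the small heat shock gene Hspb1 at -1.40 (-1.57 to -1.22). Cell cycle genes had a median of 0.31, with 6 of 14 higher and 0 lower, beside the same shares of all genes. The median was -0.10 without mixed cells, with 4 of 11 higher and 2 lower. Among venous-led cells it was 1.02, with 8 of 13 higher and 0 lower. These genes were sparse: Top2a had 54 UMIs in Keap1 cKO cells and 0 UMIs in control cells and Mki67 38 in Keap1 cKO cells and 2 in control cells. At least 5 UMIs of Mki67, Top2a and Cdk1 were held by 3 of 203 Keap1 cKO cells and 0 of 53 control cells.

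S100a8, a member of the neutrophil list, had 156 CPM in Keap1 cKO cells and 0 UMIs in control cells of cluster 8. It was seen in 49.1% of thinned Keap1 cKO cluster 8 cells, against 41.9% of thinned Keap1 cKO red blood cells. The part of free RNA in that value was not tested. This gene was picked out after its values were seen.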
